A study of Caenorhabditis elegans with 2 samples.

Results

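Intergenic binding of LET-607 far from promoters was described in whole C. elegans by chromatin immunoprecipitation and sequencing (ChIP-seq). The animals were young adult hermaphrodites of the strain YL529, which carries LET-607 with eGFP at its C-terminus, harvested 67 h after synchronization as starved larvae. An antibody against GFP was used on sonicated chromatin, in 1 group of 2 biological replicates, and no control group was analysed here. Whole animals were used, so the tissue in which any site was bound is unknown. The values are the peaks of the authors' list of reproducible peaks (IDR list, for irreproducible discovery rate) on build ce11 and each peak's deposited signal, which has no stated scale and is used only to rank peaks within 1 list. Depth is unknown, since no read counts were analysed.

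A peak was counted as intergenic and far from promoters if its summit lay inside no annotated gene of any kind and outside every promoter window, from 1000 bp upstream to 200 bp downstream of a protein-coding 5′ end. It also had to lie more than 100 bp from any gene of the tRNA or ncRNA biotype. Of the 2349 nuclear peaks of the IDR list, 392 met the rule, which is 16.7% (95% exact interval 15.2 to 18.3). The other nuclear peaks comprised 1219 in promoter windows, 479 inside genes and 259 near tRNA or ncRNA genes. The sequence in which such a summit could lie came to 21.2 Mb, or 21.2% of the nuclear chromosomes. Intergenic peaks numbered 18.5 per Mb of this sequence (exact Poisson interval 16.7 to 20.4), against 56.6 per Mb of promoter windows for promoter peaks (53.5 to 59.9). The 3 intergenic peaks closest to it lay 1006 bp upstream of dip-2, 1009 bp upstream of mstr-1 and 1014 bp upstream of M106.3, with signals of 95.6, 215.9 and 200.8. The 3 promoter peaks closest to it on the other side lay 985 bp upstream of T28C6.7, 983 bp upstream of W06F12.3 and 980 bp upstream of EGAP1.1, with signals of 90.4, 291.6 and 94.5.

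LET-607 belongs to the CREB3 family of basic leucine zipper (bZIP) transcription factors, which are made as membrane proteins of the endoplasmic reticulum (ER) and are cut to release a part that enters the nucleus. Related bZIP factors bind the cAMP response element (CRE), whose core is TGACGT, or the variants TGACGTGG and GACGTG. Promoter-distal sites in animals include enhancers, where many factors bind together, and in C. elegans the E-box CACGTG is bound by helix-loop-helix and bZIP factors and TGATAA or CTTATC by GATA factors, which include the main regulators of the intestine.

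The sequences at the summits of 8 intergenic peaks show what the sequence results below rest on. Each runs from 50 bp left to 50 bp right of the summit, on the plus strand of RefSeq's WBcel235 genome (ce11), in lower case with matches in capitals. The first 4 show the CRE core TGACGT or the E-box CACGTG, on either strand. They are the peaks nearest to bcat-1 at chrX:12872459-12872559, C46C2.7 at chrIV:9196410-9196510, T04C4.3 at chrIV:2219625-2219725 and hif-1 at chrV:20778351-20778451.
bcat-1: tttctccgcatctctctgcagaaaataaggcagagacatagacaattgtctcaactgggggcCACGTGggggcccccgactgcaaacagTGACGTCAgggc
C46C2.7: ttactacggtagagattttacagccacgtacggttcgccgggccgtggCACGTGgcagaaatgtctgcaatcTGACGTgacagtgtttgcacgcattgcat
T04C4.3: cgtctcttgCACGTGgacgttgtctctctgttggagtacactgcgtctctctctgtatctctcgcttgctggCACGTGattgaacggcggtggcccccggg
hif-1: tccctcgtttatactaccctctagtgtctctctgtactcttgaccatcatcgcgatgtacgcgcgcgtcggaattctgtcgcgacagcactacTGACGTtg
The next pair shows GATA factor sites, with TGATAA read on the other strand at the strongest intergenic peak, nearest to plp-2 at chrX:14981737-14981837, and, overlapping CTTATC, at the peak nearest to B0302.5 at chrX:17198016-17198116.
plp-2: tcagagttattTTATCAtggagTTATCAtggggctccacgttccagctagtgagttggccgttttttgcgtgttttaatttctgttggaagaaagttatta
B0302.5: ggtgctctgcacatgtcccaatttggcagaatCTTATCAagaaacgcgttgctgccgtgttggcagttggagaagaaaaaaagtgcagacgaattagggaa
The last pair shows GCGCAGGG (CCCTGCGC on the other strand), the core of the motif at which the dosage compensation complex is recruited to the X chromosome, at the peaks nearest to W02H3.3 at chrX:11094163-11094263 and to gtr-1 at chrX:806640-806740.
W02H3.3: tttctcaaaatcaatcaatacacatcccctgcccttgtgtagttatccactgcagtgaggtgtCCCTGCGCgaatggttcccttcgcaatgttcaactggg
gtr-1: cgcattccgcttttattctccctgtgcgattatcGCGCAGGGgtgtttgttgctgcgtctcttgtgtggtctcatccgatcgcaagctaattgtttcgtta

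The intergenic peaks held the middle ranks of the IDR list. Their signal ran from 78.2 to 1548.3 with a median of 125.0, and the lower and upper quartiles were 97.6 and 185.8. The median over promoter peaks was 125.7, and over peaks inside genes 115.9. The median rank of the intergenic peaks was 1126 of 2349 (interval 978 to 1250) and that of the promoter peaks 1119 (1041 to 1174). At the very top of the list they were fewer. Of the 20 strongest nuclear peaks 0 were intergenic and 18 were promoter peaks. Of the 100 strongest 14 were intergenic and 77 were promoter peaks, and of the 500 strongest 88 and 290. Intergenic peaks were 16.7% of all nuclear peaks. In the longer pooled list without the reproducibility threshold, 4628 nuclear peaks met the positional rule, and the 392 intergenic IDR peaks were 8.47% of these (7.68 to 9.31). The same share was 15.5% for promoter peaks, 3.59% for peaks inside genes and 8.78% for all nuclear peaks. Each is the share of pooled peaks with a signal at or above the lowest of the IDR list, 78.2.

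The IDR list was set by a reproducibility threshold, so overlap between the replicates is a description of the intergenic peaks and no test. The list has as many nuclear peaks, 2349, as the pooled list has at or above its lowest signal, 78.2. A single peak in it therefore need not rank high in both replicates. Of the 392 peaks, 286 overlapped 1 of the 2372 strongest peaks of each replicate's own list, which is 73.0% (68.3 to 77.3). This share was 73.4% for promoter peaks (70.8 to 75.9), 70.1% for peaks inside genes and 71.9% for all nuclear peaks, so it was near the background. The share was lower among weaker peaks. With the nuclear list split by rank into 4 classes of nearly equal size, it was 99.0% of intergenic peaks in the strongest class, 95.1% and 71.8% in the next classes and 17.4% in the weakest. The same shares for promoter peaks were 100%, 97.7%, 66.7% and 23.6%. In all these counts a peak took the best rank among the replicate peaks that it overlapped. A weak peak beside a strong one can therefore count through the strong one's replicate peak, which can raise the shares. With summits required to lie within 100 bp, the share of intergenic peaks was 66.6%. In whole relaxed lists, 388 of the 392 overlapped a peak of both replicates. Where both replicates had the peak among their strongest, their summits lay a median of 29.5 bp apart (25 to 37), and for promoter peaks 23 bp apart (20 to 26). Of the 286 peaks, 264 had replicate summits within 100 bp of each other.

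**Figure D1:**
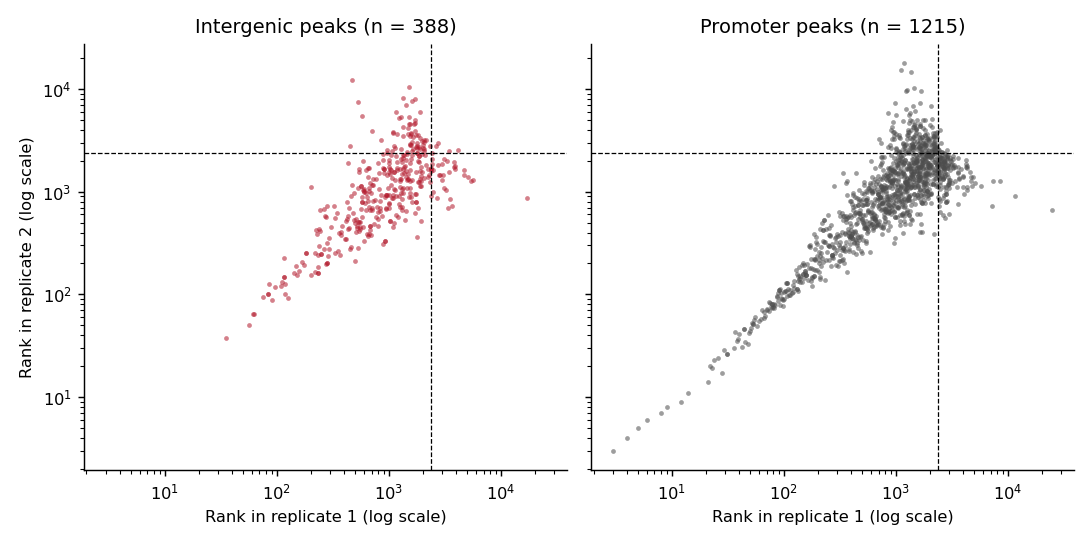
Rank of each peak in replicate 1 (x axis) and in replicate 2 (y axis), both on log scales, for the intergenic peaks (left) and the promoter peaks (right) that overlapped a peak in both replicates, where rank 1 is the strongest. Dashed lines mark rank 2372. Inside both lie 286 intergenic and 895 promoter peaks, and the spread between replicates widens toward the weaker peaks in both panels. Peaks matched to the same replicate peak share its rank.

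The strongest intergenic peaks lay in the top of both replicates. The first, at chrX:14981673-14982008, had a signal of 1548.3 and ranked 23 of all nuclear peaks, 35 in replicate 1 and 38 in replicate 2. Its summit lay between the convergent genes emre-1 and plp-2, past the 3′ end of plp-2 and 1017 bp from that gene's 5′ end. The second, with a signal of 1151.1, ranked 33, and 56 and 50 in replicates 1 and 2. Its summit at position 11027775 of chromosome IV lay 84 bp upstream of the 5′ end of the microRNA gene cel-mir-53, and between the protein-coding genes alh-3 and hrg-5. The next 2 had equal signals of 959.9. One lay past the 3′ end of Y7A5A.24 on X. The other lay on chromosome I between npp-7, which codes for a nucleoporin, and pamn-1, 3038 bp upstream of the 5′ end of pamn-1.

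All of the 20 strongest intergenic peaks were among the strongest 224 of each replicate. Their signals reached down to 389.1, at nuclear rank 146, and their replicate summits lay a median of 12.5 bp and at most 56 bp apart. Their places differed, as 11 of the 20 lay downstream of the nearest 5′ end and the others upstream. The nearest 5′ ends of the others, in order of signal, were those of F40E3.3 (signal 701.3), bcat-1 (654.4), tcc-1 (646.3), K08F11.1 (589.8), W02H3.3 (562.5), vab-8 (558.3), M106.2 (531.7), sup-26 (529.1), K02D3.1 (509.2), gtr-1 (503.6), K08F11.1 again (476.3 and 438.4), ZK899.6 (418.3), B0302.5 (417.8), F20B6.9 (410.4) and F19H6.5 (389.1). Of these, bcat-1 codes for a branched-chain amino acid aminotransferase, vab-8 for a kinesin-like protein of cell and axon migration, and sup-26 for an RNA-binding protein. The pair at K08F11.1 with signals of 476.3 and 438.4 overlapped the same peak in each replicate, so neither replicate separates them.

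Intergenic peaks were denser close to genes. Their summits lay a median of 2273 bp from the nearest protein-coding 5′ end (2049 to 2441), against 2722 bp for every base that meets the rule. Within 2000 bp of such an end lay 172 of the 392 (43.9%), against 34.0% of the eligible bases. Upstream of the nearest 5′ end, the density was 27.5 peaks per Mb between 1 and 1.5 kb (21.8 to 34.1), 16.8 between 1.5 and 2 kb, 20.2 between 2 and 3 kb, 15.1 between 3 and 5 kb, 12.2 between 5 and 10 kb and 4.21 beyond 10 kb (0.51 to 15.2). Downstream, it was 34.6 per Mb between 1 and 1.5 kb (22.4 to 51.1) and 11.9 between 5 and 10 kb (6.96 to 19.1). Density on the downstream side as a whole, 19.1 per Mb (16 to 22.6), and on the upstream side, 18.2 per Mb (16 to 20.5), had overlapping intervals. The farthest summit lay 15370 bp from any protein-coding 5′ end, and 6 lay beyond 10 kb. To the nearest annotated gene of any kind, the median distance of intergenic summits was 704 bp.

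Density also differed with the orientation of the flanking genes. Between divergent genes, where both neighbours start toward the summit, 82 peaks gave 12.5 per Mb (9.91 to 15.5). Between tandem genes 240 peaks gave 21.2 per Mb (18.6 to 24.0), and between convergent genes 70 peaks gave 21.3 per Mb (16.6 to 26.9). Divergent spaces held 20.9% of the intergenic peaks (17 to 25.3) and 31.0% of the eligible sequence. These differences between places were not tested, since neighbouring bases and peaks are not independent.

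**Figure D2:**
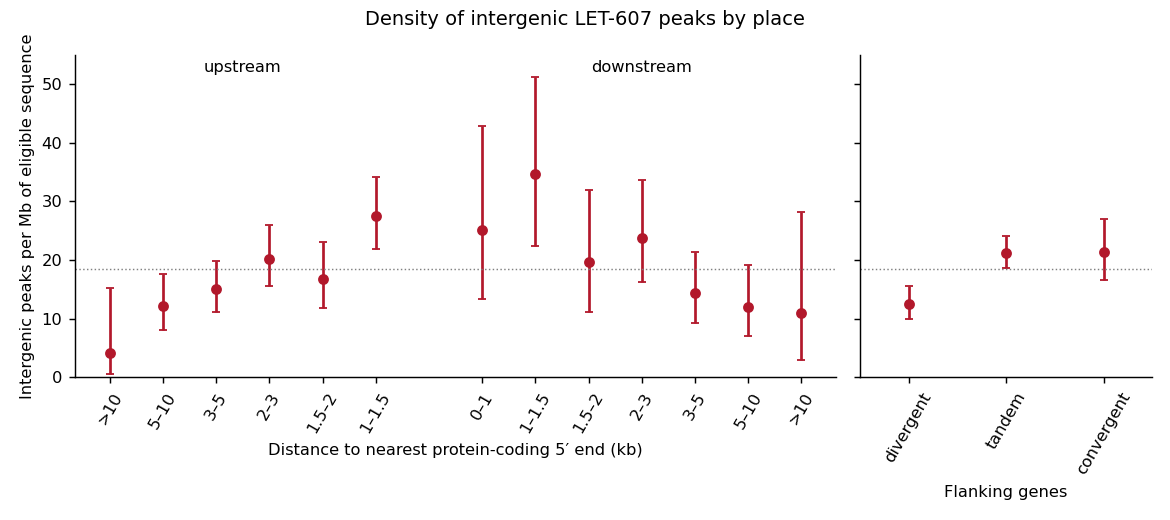
Intergenic peaks per Mb of sequence that meets the positional rule (y axis), by distance to the nearest protein-coding 5′ end in kb, upstream and downstream (left), and by orientation of the 2 flanking protein-coding genes (right). Points are densities, bars exact 95% Poisson intervals and the dotted line the density over all eligible sequence, 18.5 per Mb; density is highest near 1 to 1.5 kb and lowest beyond 10 kb upstream, and divergent spaces lie below tandem and convergent ones.

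By chromosome, the density of intergenic peaks was 14.6 per Mb on V (11.1 to 18.9), 15 on IV (11.5 to 19.1), 18.2 on I, 18.5 on II and 21.9 on X (18 to 26.4). Chromosome III had the highest, with 59 peaks in 2.45 Mb (interval 18.3 to 31.1 per Mb). Promoter peaks per Mb of promoter windows were also least dense on V, at 36.9, and densest on III, at 83.3. The X chromosome held 110 intergenic peaks, 28.1% of all (23.7 to 32.8), and 23.7% of the eligible sequence, since 28.4% of X meets the rule. Of the 88 intergenic peaks among the 500 strongest nuclear peaks, 29 lay on X, which is 33.0% (23.3 to 43.8). The interval includes the 28.1% of all intergenic peaks. Of the 290 promoter peaks among those 500, 52 lay on X (17.9%), and of all promoter peaks 17.4% did. X also held 10 of the 20 strongest intergenic peaks. The median nuclear rank of the intergenic peaks was 968 on X and 1183.5 on the autosomes.

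**Figure D3:**
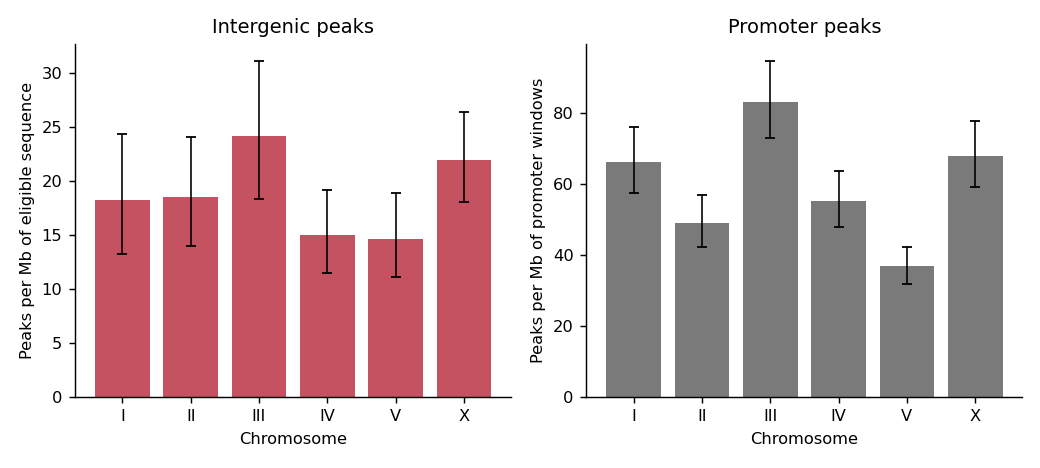
Intergenic peaks per Mb of eligible sequence (left) and promoter peaks per Mb of promoter windows (right) on each nuclear chromosome, drawn on y axes of different range. Bars are densities and error bars exact 95% Poisson intervals; chromosome III is highest and V lowest in both panels, and X, at 21.9 per Mb, is second among the intergenic peaks.

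Sequences at the summit were compared with the sequence nearby in the genome. For 21 short sequences listed for this purpose, the share of intergenic peaks with a match within 50 bp of the summit, counting both strands, was set against windows of the same length centred 300 bp to either side. The test was an exact two-sided binomial test of the peaks that had the sequence in only one of the windows, taking the larger p of the 2 flanks, with Benjamini-Hochberg adjustment over the 21. Peaks are not replicates, so these p-values describe this peak set. At an adjusted p below 0.05, 8 of the 21 (38.1%) were more common at the summit and 2 (9.52%) were less common. The 8 were the CRE core TGACGT, the bZIP site GACGTG, the E-box CACGTG, the string CCACG, the GATA sites TGATAA and also CTTATC, the repeat GAGAGA and the control string ACGTAC. This control was 1 of 2 strings listed as such, and passed with 5.10% of summits against 1.53% of flank windows (exact binomial test, adjusted p = 0.022). Its call was lost in 7 of the 11 alternatives, among them without replicate 1 (1.81 points, exact binomial test, adjusted p = 0.39) and without replicate 2 (2.52 points, exact binomial test, adjusted p = 0.079). Several of the strings share letters, as CCACG and CACGTG can overlap, as can TGACGT with GACGTG and the GATA sites with each other.

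The strict GATA site CTTATC had the smallest p among the 21. It lay at 70 of the 392 summits, which is 17.9% (14.2 to 22), and in 4.85% of flank windows, a difference of 13.0 percentage points (exact binomial test, adjusted p = 3e-07). TGATAA lay at 94 summits (24.0%) and in 11% of flank windows (exact binomial test, adjusted p = 2.4e-05). At least one of them lay at 28.6% of summits, and 52 summits had both. In 210090 tiles of the same length across all eligible sequence, CTTATC lay in 3.49% and TGATAA in 9.20%. Both had higher shares at intergenic than at promoter summits, where CTTATC lay in 10.1% and TGATAA in 13.3%. The differences were 7.77 points for CTTATC (Newcombe interval 3.85 to 12.2) and 10.7 points for TGATAA (6.24 to 15.5). The control ACGTAC also had a higher share at intergenic summits, 5.10% against 2.38% at promoter summits, a difference of 2.72 points (0.677 to 5.47). Against peaks inside genes its difference was 3.43 points (1.05 to 6.2). Peaks inside genes had shares close to those of the intergenic peaks, with TGATAA at 22.8%, 1.22 points lower (interval of the difference -4.38 to 6.92), and CTTATC at 15.2%, 2.62 points lower (-2.31 to 7.66). Within 25 bp of the summit the call of TGATAA did not hold (exact binomial test, adjusted p = 0.11). Promoter summits were richer in G and C, so the comparison was repeated below and above the median GC content, a choice made after the values were seen. Below the median GC of 44.6%, TGATAA lay at 34.3% of intergenic and 24.6% of promoter summits, a difference of 9.75 points (2.81 to 16.9). At or above it, the shares were 8.81% and 4.40%, a difference of 4.41 points (0.476 to 9.99). For CTTATC the difference was 5.91 points below the median, with an interval of -0.16 to 12.5 that includes 0, and 5.33 points at or above it (1.29 to 11).

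Intergenic peaks with CTTATC were not the strongest ones. Their median nuclear rank was 1335, against 1083 for intergenic peaks without it, and 44 of the 70 (62.9%) were among the strongest of both replicates. The strongest 4 lay nearest to B0302.5 (signal 417.8), asp-13 (266.3), zip-12 (246.4) and idh-1 (243.7). The gene asp-13 belongs to the aspartyl proteases and idh-1 codes for an isocitrate dehydrogenase. The strongest with TGATAA were the peaks at plp-2, Y7A5A.24, B0302.5 and K07D4.2 (273.4).

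The E-box CACGTG stood out by its ratio to the flanks. It lay at 45 summits, which is 11.5% (8.50 to 15.1), and in 1.79% of flank windows, or 6.43 times as often (exact binomial test, adjusted p = 4e-07). It lay in 1.35% of eligible tiles and at 6.73% of promoter summits, 4.75 points fewer than at intergenic summits (1.56 to 8.51). The control ACGTAC, as given above, also had a lower share at promoter summits. Below the median GC content the difference was 2.12 points, with an interval of -1.79 to 6.87, and at or above it 8.50 points (3.31 to 15.1). Peaks inside genes had it at 12.9% of summits, 1.46 points more (interval for intergenic minus inside genes -5.79 to 2.99). It lay at 6.36% of the intergenic summits on X and at 13.5% of those on the autosomes. Peaks with CACGTG ranked higher than the others, with a median nuclear rank of 774 against 1181, and 40 of the 45 (88.9%) were among the strongest of both replicates. The 4 strongest lay nearest to bcat-1 (654.4), C46C2.7 (302.9), pgp-2 (287.7), which codes for an ABC transporter, and T04C4.3 (283.1). In the first the match began 12 bp to the right of the summit, in the second 2 bp to its left, and T04C4.3 had 2 matches, as printed above.

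The CRE core TGACGT lay at 34 summits, which is 8.67% (6.08 to 11.9), and in 3.06% of flank windows (exact binomial test, adjusted p = 0.014). The share at promoter summits was 9.27% (7.70 to 11), with a difference of -0.596 points (-3.57 to 2.94), and it was 3.17% in eligible tiles. At peaks near tRNA or ncRNA genes it was 2.32%, which is 6.36 points less than at intergenic summits (2.79 to 9.79). The call did not hold without replicate 1, in the 2372 strongest peaks of replicate 2, where the excess over flanks was 3.11 points (exact binomial test, adjusted p = 0.29), nor within 25 bp of the summit, where it was 1.28 points (exact binomial test, adjusted p = 1.0). Over 11 alternative settings its adjusted p ran from 0.003 to 1.0. The extended TGACGTGG lay at 8 summits and in 1 window of each flank (exact binomial test, adjusted p = 0.068), and the palindrome TGACGTCA at 2 summits, of bcat-1 and F09F7.6, and in 3 windows of each flank. GACGTG, a shorter site of bZIP factors of the unfolded protein response, lay at 24 summits (6.12%) and in 2.04% of flank windows (exact binomial test, adjusted p = 0.042, and 0.00053 to 0.18 over the alternatives). Of the 34 summits with TGACGT, 5 also had CACGTG, which lay at 45 of all 392 intergenic summits (11.5%). This overlap was not tested.

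Intergenic peaks with the CRE core had a median nuclear rank of 1179.5, against 1111 for those without it. The 4 strongest lay nearest to pamn-1 (signal 959.9), bcat-1 (654.4), hif-1 (315.5) and C46C2.7 (302.9). In the first the match began at the summit itself, and in the others 39, 43 and 22 bp to the right of it. The hif-1 peak lay 2006 bp upstream of hif-1, the gene of the hypoxia-inducible transcription factor, in a divergent space shared with F38A6.4. It ranked 205 of all nuclear peaks, 217 in replicate 1 and 254 in replicate 2.

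Of the other listed sequences, CCACG, one end of the mammalian ER stress element, lay at 85 summits (21.7%) and in 7.27% of flank windows (exact binomial test, adjusted p = 2.3e-06). The NF-Y box CCAAT, its other end, lay at 15.6% of summits and in 14.3% of flank windows (exact binomial test, adjusted p = 0.88). The share of CCACG was 23.6% at promoter summits, a difference of -1.94 points (-6.47 to 2.97). Its strongest carriers lay at plp-2, Y7A5A.24, F40E3.3 and bcat-1. The GA repeat GAGAGA lay at 73 summits (18.6%) and in 7.53% of flank windows (exact binomial test, adjusted p = 5.6e-05), led by F40E3.3, bcat-1, tcc-1 and K08F11.1. AAAAAA lay at 26.5% of summits and in 46.8% of flank windows (exact binomial test, adjusted p = 4e-07), and TTTCAG, the letters of the splice acceptor, at 7.40% and in 17% (exact binomial test, adjusted p = 0.00016). The call of TTTCAG was lost without replicate 1 (-5.96 points, exact binomial test, adjusted p = 0.093) and among the stronger peaks of the IDR list (exact binomial test, adjusted p = 0.068). The E-box, the strict GATA site CTTATC, the string CCACG, the GA repeat and the A tract were called under each of the 11 alternatives. The tRNA gene box GGTTCGA, searched because the rule kept peaks near tRNA genes out, lay at 7 summits and in 0.383% of flank windows (exact binomial test, adjusted p = 0.29), and its core GTTCGA at 4.85% and in 3.32%. The AP-1 site TGACTCA and the 21U-RNA upstream motif CTGTTTCA lay at 3 summits each, the C/EBP palindrome TTGCGCAA at 0, the TATA box TATAAA at 6.38%, and the other control TGCAGT at 5.10%, and none of these passed. In eligible tiles, the share with a match was 6.19% for CCACG, 5.15% for the GA repeat, 47.8% for the A tract, 17% for the splice acceptor, 18.8% for the NF-Y box and 13% for the TATA box. It was 1.62% for GACGTG, 0.235% for TGACGTGG, 0.517% for the palindromic CRE, 1.41% and 3.06% for the first and the other control, 0.735% for the tRNA box and 3.27% for its core. It was 0.971% for the AP-1 site, 1.49% for the 21U-RNA motif and 0.178% for the C/EBP palindrome.

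**Figure D4:**
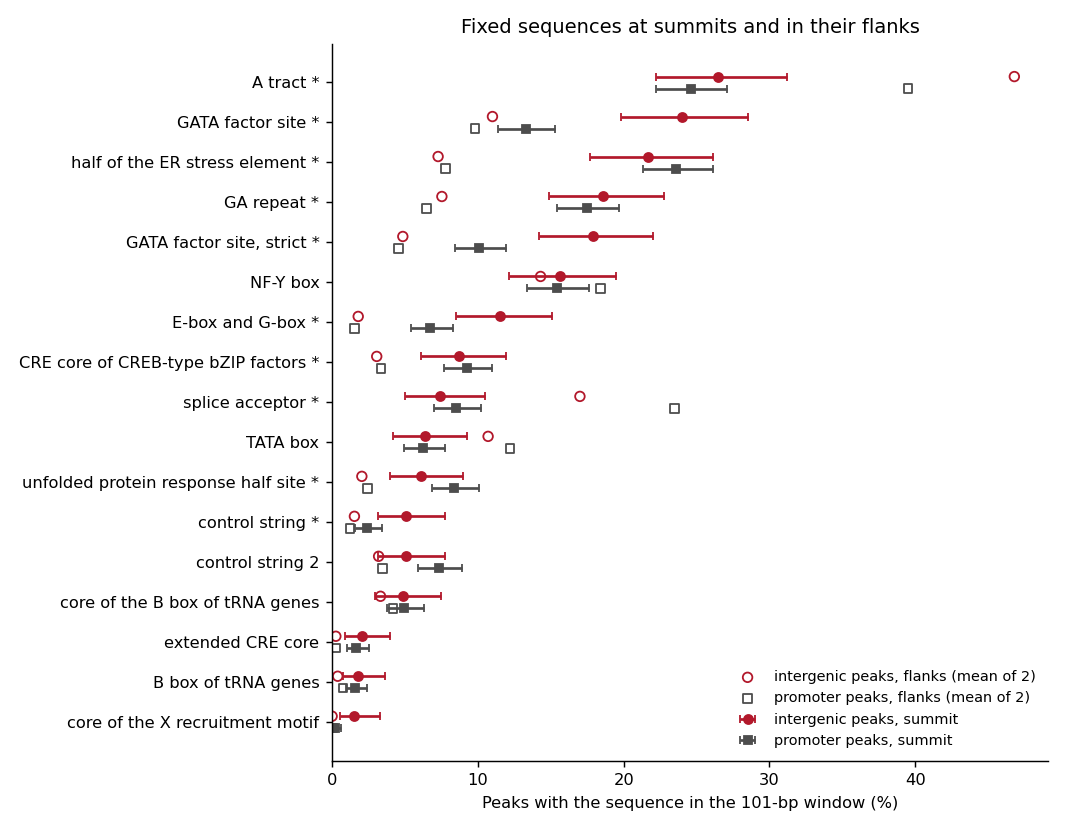
Share of peaks (x axis, percent) with each listed sequence within 50 bp of the summit (filled) and in windows of equal length 300 bp to either side (open, mean of the 2), for intergenic peaks (red circles) and promoter peaks (grey squares). Bars are exact 95% intervals and an asterisk marks an adjusted p below 0.05 at intergenic peaks. The GATA sites, the E-box and the control ACGTAC lie farther right at intergenic than at promoter summits, while the CRE core is at 8.67% and 9.27%. Sequences under 1% at intergenic summits are not drawn.

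The core of the X recruitment motif, GCGCAGGG, was found at 6 intergenic summits and in 0 flank windows (exact binomial test, adjusted p = 0.06, and 0.021 to 1.0 over the alternatives). Each of the 6 lay on X, where they were 5.45% of 110 peaks, against 0 of 282 on the autosomes. In eligible tiles the motif was rare on both, with 0.0503% of tiles on X and 0.0274% on the autosomes. The dosage compensation complex, which binds this motif, acts on both X chromosomes of hermaphrodites. The 6 peaks were strong, with a median signal of 391.5 and a median nuclear rank of 147.5, and all 6 were among the strongest of both replicates. They lay nearest to W02H3.3 (signal 562.5), gtr-1 (503.6), F20B6.9 (410.4), xol-1 (372.5), T24D8.6 (239.3) and col-185 (167.0). The F20B6.9 peak lay between that gene and hpk-1, a homeodomain-interacting kinase, and the col-185 peak between that gene and cdk-4, a cell cycle kinase. The xol-1 peak lay 4841 bp upstream of xol-1, the switch gene that reads the number of X chromosomes. At promoter summits the motif lay at 2 of 1219 (0.164%), 1.37 points less than at intergenic summits (0.433 to 3.14), and inside genes at 5 of 479 (1.04%), with an interval of the difference of -1.12 to 2.35.

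A scan of all 2080 6-letter sequences, with reverse complements merged and the same test, called 24 (1.15%) as more common at intergenic summits than in their flanks and 38 (1.83%) as less common. The 5 with the smallest p were AAAATT, which fell to 20.4% of summits against 45.2% of flank windows, AAAAAT (27.6% against 51.1%), CTTATC (17.9% against 4.85%), CAAAAA (21.9% against 41.3%) and ACGCAG (10.2% against 1.15%, exact binomial test, adjusted p = 1.3e-05). Of the 24 called as more common, 23 were called in the same direction at promoter summits, of which there were 1219. The share of all 2080 called there is not given, so this count has no background beside it. The other, TGATAA, was also more common there, at 13.3% against 9.80% of flank windows, but was not called. Of these 24, GACGCA and ACGCAG lie within the string AGACGCAG. This 8-letter string was read off after the scan and is given without a test. It lay at 23 intergenic summits (5.87%), in 1 left and 2 right flank windows, in 0.573% of eligible tiles and at 6.97% of promoter summits. Its strongest carriers were the peaks of pamn-1, gtr-1, C30E1.4 and Y17G7B.17.

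Base composition changed with distance from the summit on the same scale as the sequences. GC content averaged 42.3% ± 8.45 over the same windows at intergenic summits and 34.5% ± 8.08 over the flank windows (SD over peaks), and 304 of the 392 summits had more than the mean of their flanks. At promoter summits it averaged 45%, and over eligible tiles 33.7%. Sequence that RefSeq marks as repetitive made up 18.2% of intergenic summit windows, 37.4% of left and 36.8% of right flank windows. Composition moves the share of any short sequence, and its part in each result was not tested beyond the split by GC.

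**Figure D5:**
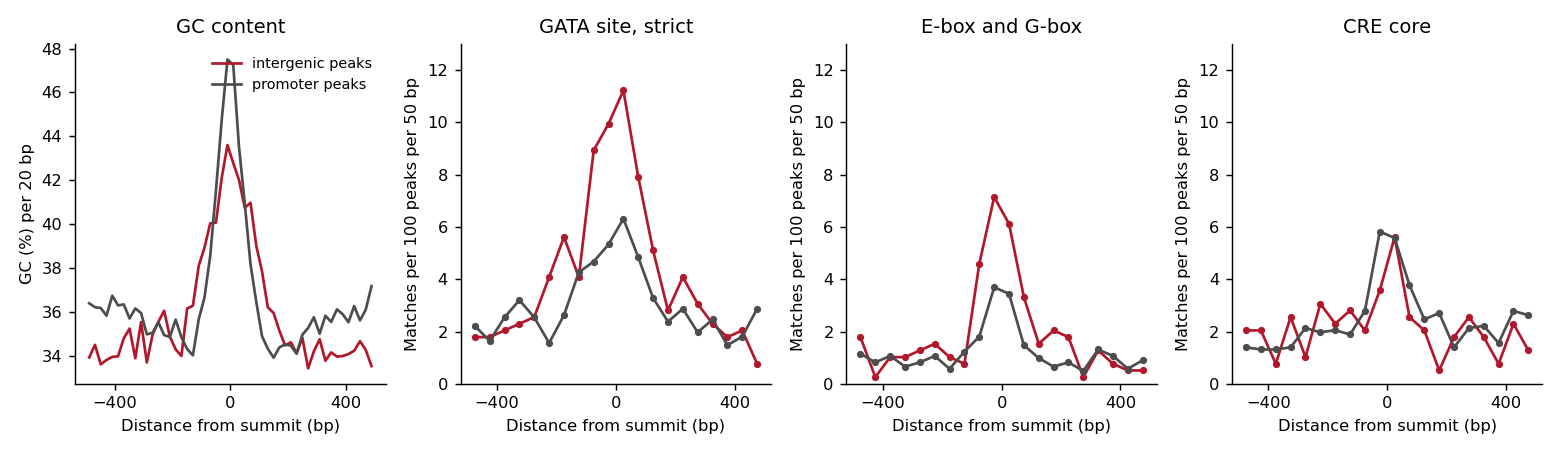
Profiles around the summit (x axis, bp) of intergenic peaks (red) and promoter peaks (grey): mean GC content in 20-bp steps on an axis that does not start at 0 (left), and matches per 100 peaks in 50-bp steps of the strict GATA site, the E-box and the CRE core. The GATA site and the E-box rise higher at intergenic peaks and GC content at promoter peaks, while the CRE core at intergenic peaks is at 5.61 matches per 100 peaks just right of the summit and 3.57 just left of it, against 3.06 at 225 bp to the left.

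The rule barred tRNA and ncRNA neighbourhoods but not genes of other small RNAs, and snoRNA genes had the highest density of intergenic peaks. Small nucleolar RNAs guide the chemical modification of ribosomal and spliceosomal RNAs. Within 200 bp of a snoRNA gene, 13 peaks fell in 0.027 Mb of eligible sequence, which is 485 per Mb (258 to 829). All 13 summits lay upstream of the snoRNA's own 5′ end, from 17 to 122 bp away with a median of 43 bp, and 11 were among the strongest of both replicates. The strongest lay 55 bp upstream of F30H5.4 (signal 206.0, rank 453 of the nuclear peaks, 524 in replicate 1 and 442 in replicate 2) and 76 bp upstream of W03C9.9 (signal 205.3, rank 457). The peak beside F32E10.10 ranked 526 in replicate 1 and only 7475 in replicate 2. Within 200 bp of snRNA genes lay 3 peaks, all at SL2 genes, which code for spliced leader RNAs added to messages of operons, namely sls-2.2 (signal 305.4), sls-2.9 (150.1) and sls-2.3 (101.8). The peaks at sls-2.2 and sls-2.3 overlapped the same peak in each replicate. The density around piRNA genes was 4.49 per Mb (1.65 to 9.77), and around pseudogenes it was 16.1 (6.97 to 31.8).

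The nearest protein-coding 5′ end lay within 5 kb for 341 of the 392 peaks, and these named 305 genes, or 1.53% of 19985. A nearest gene is a position and not a target. Of the 305 genes, 50 also had a promoter peak in the IDR list (16.4%, 12.4 to 21), against 7.70% of all protein-coding genes. Most had 1 intergenic peak, 30 had at least 2 and 5 at least 3.

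Counts of secretory pathway genes nearest to an intergenic peak were small, and are set here beside the 1.53% of all protein-coding genes. Of 26 annotated genes of ER folding and the unfolded protein response, 2 were nearest within 5 kb (7.69%), of 18 of ER translocation 2 (11.1%), and of 29 of ER-Golgi transport and 25 of N-glycosylation 0 each. The xbp-1 peak had a signal of 271.2 and ranked 271, with 223 and 419 in replicates 1 and 2. Its summit lay 108 bp past the 3′ end of xbp-1, which codes for the bZIP factor of the IRE1 branch of the unfolded protein response, 1657 bp from its 5′ end. The ire-1 peak, 1361 bp upstream of the gene of the sensor kinase, was weak, with a signal of 89.1, rank 1936, and 3784 in replicate 1 against 1741 in replicate 2. For translocation, the peak of sec-61.A, the gene of the channel subunit, lay 193 bp past its 3′ end (signal 217.6, rank 413), and that of trap-2, of a translocon-associated protein, 51 bp past its 3′ end (signal 175.4, rank 611). Of these 4 peaks, 3 lay just past the 3′ end of the listed gene, within 200 bp of it. Since the rule bars 1000 bp upstream of protein-coding 5′ ends, a summit this close can only lie past the 3′ end. Of all 392 intergenic peaks, 60 lay within 200 bp of a protein-coding gene. Their density was 37.8 per Mb (28.8 to 48.7), against 18.5 per Mb over all eligible sequence. The 3 of 4 were not tested against this background.

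Among the other lists, 2 of the 28 listed bZIP genes were nearest, xbp-1 and zip-11, whose peak lay 369 bp past its 3′ end (signal 378.5, rank 154). The list did not hold zip-12, whose 5′ end was nearest to a peak 2482 bp upstream of it (signal 246.4, rank 327). Of 21 intestinal genes 1 was nearest, asp-1, an aspartyl protease, with a peak 2811 bp upstream (signal 121.7). Of 18 body wall muscle genes it was unc-60, a cofilin gene (3590 bp upstream, signal 90.8), and of 45 developmental transcription factors sma-9 (2925 bp upstream, signal 223.9). The lists of neuron, hypodermis, germline and pharynx genes, with 24, 16, 22 and 11 members, had 0. These counts of 0 to 2 genes a list were not tested against the 1.53% of all genes.

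Some intergenic peaks came in groups. Another nuclear IDR summit lay within 1000 bp of 55 of the 392 (14%, 10.7 to 17.9), against 10.7% of promoter peaks (8.99 to 12.5), 15.9% of peaks inside genes (12.7 to 19.4) and 12.6% of all nuclear peaks. One lay within 2000 bp of 121 (30.9%, 26.3 to 35.7), against 22.8% of promoter peaks (20.5 to 25.3), 29% of peaks inside genes (25 to 33.3) and 25.6% of all nuclear peaks. These counts include summits within one enriched interval, since 30 of the 392 peaks overlapped another of them and the 392 merged into 377 intervals. Among the stronger peaks, above the median signal of the list, the share of intergenic peaks within 1000 bp of another summit was 4.0%. Linking summits at most 5000 bp apart gave 9 groups of at least 3 intergenic peaks. Such groups were not counted for the other classes, so this number has no background beside it. The strongest group had 4 peaks over 7289 bp around K08F11.1 on chromosome IV, with signals from 97.8 to 589.8. It includes the pair that neither replicate separates. Another 4 spanned 12828 bp around fat-1, the gene of an omega-3 fatty acid desaturase, with signals from 83.1 to 159.2. One more group of 4 lay over 5010 bp between mxl-3 and C49F8.15, with signals from 86.7 to 155.8. The others had 3 peaks each, around K07D4.2, ret-1, rsd-3, aakg-3, K01F9.2 and Y39E4B.6, with spans from 566 to 5894 bp.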

How the data were processed

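LET-607 ChIP-seq of 2 biological replicates of 1 group was used as deposited peak lists on build ce11. The deposited descriptions state that the authors made relaxed lists for either replicate and for both pooled, each set against 1 control file, and an IDR list of reproducible peaks. Which aligner and caller made them is not given in the sources used here. Each peak's signal, as the authors deposited it, has no stated scale, and their −log10 q-value was not used to rank. The summit is the authors' deposited offset from the peak start. Lists on ce10 were not used here. Of 2372 IDR peaks, 23 mitochondrial ones were left out. No counts were analysed, so intervals cover counting error only.

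Genes came from Ensembl release 115 (WBcel235) and sequence from RefSeq's WBcel235 genome; coordinates are 1-based. The members, the 21 sequences and the 12 gene lists were chosen with earlier results of these data known. Of the listed genes, 8 symbols were not found. Peaks named were the 20 strongest, up to 4 strongest with each sequence that passed or with TGACGT, those nearest to the promoter limit, and those nearest to a listed gene within 5000 bp; others named were chosen after their values were seen, as were the snoRNA and snRNA neighbours and the groups. Shares have exact Clopper-Pearson intervals, densities exact Poisson intervals, medians binomial order intervals and differences of shares Newcombe intervals, all at 95%. The position rule was checked at random positions of the genome. The sequence tests were checked on windows at random positions of eligible sequence, with CACGTG placed in some of them. Those windows were not matched to the base composition of the summits. Python 3.11.15, numpy 2.4.6, pandas 2.3.3, scipy 1.17.1, statsmodels 0.14.6 and matplotlib 3.10.9 were used. Alternatives are given in the closing section.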

Additional observations from a re-analysis of the deposited data

How the results depend on the processing

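The number of intergenic peaks was 256 with promoter windows of 2000 bp and 200 among the stronger peaks, above the median signal of the IDR list. The share found in both replicates was 56.9% with an overlap of 50% of each peak, 66.6% with summits within 100 bp, 99.0% in whole relaxed lists, 94.4% with double the number of replicate peaks, and 77.7% with the 2000 bp window. With that window the share on X was 32.8% and the median distance to a 5′ end 2930 bp. The excess of GC over flanks, 7.81 points, was 9.64 among the stronger peaks, 8.86 in windows of 25 bp and 6.49 in windows of 100 bp each side. The share within 1000 bp of another summit was 4.0% among the stronger peaks, where fewer summits are left, and ran from 16.4% to 18.7% with 1 replicate left out. The genes named within 2000 bp were 167. The number of sequences called as more common was 5 within 25 bp, among the stronger peaks, among peaks of both replicates, with the 2000 bp window, and without peaks within 500 bp of small RNA genes, a setting added after the data were seen. The excess of TGACGT lost its call in those settings, at 1.28, 4.5, 4.9, 4.88 and 5.57 points (adjusted p from 0.053 to 1.0), and ran from 3.11 to 5.54 points with 1 replicate left out. The 6-mers called as more common were 66 in windows of 100 bp and 43 with flanks at 500 bp, of which 23 and 20 were among the 24, and those called as less common were 61 in windows of 100 bp. The causes were not tested. No listed sequence that passed in any setting changed direction. The other settings of these results, 41 in number, left the value inside its interval or within 1.5 times, except for 5 settings of TGACGT. Those 5 kept its direction and its call. No paired analysis was possible because there was 1 group. Unknown depth limits all of these lists.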
